A study of Mus musculus with 8 samples.

Results

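The core circadian clock loop was followed through ageing of muscle stem cells by reading 10 genes, Arntl, Clock, Npas2, Per1, Per2, Per3, Cry1, Cry2, Nr1d1 and Nr1d2, out of 31723 in the expression table. The genes were taken by symbol, and all 10 were present and tested. They are a textbook pathway, and they were chosen by their role in it at a time when their normalized counts in old and young cells were already known. Their age differences are therefore given as a description, and no p-value is attached to any of them. Muscle stem cells, the Pax7-expressing progenitors of skeletal muscle, had been sorted fresh from the hindlimbs of wild-type (WT) C57BL/6 mice. Old mice were 20 months of age and young mice 3 months, with 4 libraries at each age. RNA came from 200000 cells per library, and libraries were built from 150 pg of amplified cDNA. The labels do not say whether a library holds 1 animal or a pool, so every spread given here is one between libraries and may be partly technical. They give no time of day for the collections, so that an age difference in the phase of the clock and one in its level cannot be told apart.

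The mammalian clock is a transcriptional feedback loop that runs in nearly every cell. BMAL1, encoded by Arntl, pairs with CLOCK or with its relative NPAS2 and switches on genes with E-box elements, among them the Per, Cry and Nr1d genes. PER and CRY proteins accumulate, return to the nucleus and silence that pair. REV-ERB-alpha and REV-ERB-beta, encoded by Nr1d1 and Nr1d2, occupy ROR elements and repress Arntl, Npas2 and Clock, while ROR receptors activate through the same elements. PAR-domain factors such as DBP act on D-boxes, for which NFIL3 competes. In muscle stem cells BMAL1 is known to affect proliferation and regeneration in mice.

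The elements through which this loop runs can be read in the promoters of some of its members. Windows of 300 bases, from 250 before to 50 after an annotated start, came from RefSeq (GRCm38.p6) for 9 of the 10 genes, all but Per2, with 13 windows because some genes have several starts. The 4 windows shown are those that hold the ROR element core TAGGTCA, the D-box TTATGTAA or the E-box CACGTG. Each is written 5′ to 3′ on the strand of its gene, in lower case with the matching motif in capitals. Arntl lies on chr7:113207261-113207560 (plus strand, with TAGGTCA in capitals), Per3 on chr4:151044616-151044915 (minus strand, TTATGTAA), Per1 on chr11:69098699-69098998 (plus strand, CACGTG) and Cry1 on chr10:85185005-85185304 (minus strand, CACGTG).
Arntl: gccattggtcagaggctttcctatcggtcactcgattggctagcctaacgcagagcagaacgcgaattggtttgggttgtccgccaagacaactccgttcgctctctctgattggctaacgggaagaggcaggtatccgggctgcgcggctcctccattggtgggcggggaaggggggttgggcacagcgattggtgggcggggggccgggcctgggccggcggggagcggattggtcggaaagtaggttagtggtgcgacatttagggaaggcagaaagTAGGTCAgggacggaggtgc
Per3: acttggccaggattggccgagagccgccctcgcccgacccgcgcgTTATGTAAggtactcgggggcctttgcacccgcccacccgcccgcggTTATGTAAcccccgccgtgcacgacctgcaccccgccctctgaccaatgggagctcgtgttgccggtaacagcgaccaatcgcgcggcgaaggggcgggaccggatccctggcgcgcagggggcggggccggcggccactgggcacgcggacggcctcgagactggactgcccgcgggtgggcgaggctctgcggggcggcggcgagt
Per1: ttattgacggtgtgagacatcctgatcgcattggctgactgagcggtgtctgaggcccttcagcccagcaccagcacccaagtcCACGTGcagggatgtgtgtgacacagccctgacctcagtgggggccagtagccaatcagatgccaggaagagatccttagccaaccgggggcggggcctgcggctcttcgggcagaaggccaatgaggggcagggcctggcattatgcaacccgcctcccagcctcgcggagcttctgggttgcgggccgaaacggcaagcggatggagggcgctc
Cry1: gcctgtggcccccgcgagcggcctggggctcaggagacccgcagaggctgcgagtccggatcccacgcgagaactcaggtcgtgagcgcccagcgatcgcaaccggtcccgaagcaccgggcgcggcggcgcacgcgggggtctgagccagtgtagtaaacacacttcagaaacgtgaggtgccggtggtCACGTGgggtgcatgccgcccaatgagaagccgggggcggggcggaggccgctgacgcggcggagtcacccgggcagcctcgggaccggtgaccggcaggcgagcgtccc

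In the Arntl window the ROR element core TAGGTCA began 31 bases into the transcribed part, and 2.61% of all 32851 RefSeq windows of this length held that core on either strand. Per3 carried 2 copies of the D-box TTATGTAA, at 205 and 158 bases before the start, against 0.938% of all windows with at least 1. The E-box CACGTG stood 166 bases before the start in Per1 and 60 bases before it in Cry1, and in 7.15% of all windows. The related E-prime box CACGTT, in 4.68% of all windows, was matched on the opposite strand in Cry1, Cry2 and Nr1d1. No listed motif was found in the windows of Clock, Npas2 or Nr1d2, and the cAMP response element TGACGTCA, in 1.79% of all windows, was in none of the 13. None of these 5 motifs overlaps another as matched here. They were kept out of 8 spellings after their matches in these windows had been seen. Of the 3 left out, GGGTCA matched no member window, against 13.7% of all windows. The looser D-box TTATGNAA, in 3.38% of all windows, matched the 2 sites in Per3 and 1 more in Per1, 24 bases before the start, and TGACG, a part of the cAMP response element, in 20.8% of all windows, matched in Cry1, Cry2 and Per1. All motifs were searched on both strands. A match describes letters in a short window, and elements farther away were not searched.

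**Figure D1:**
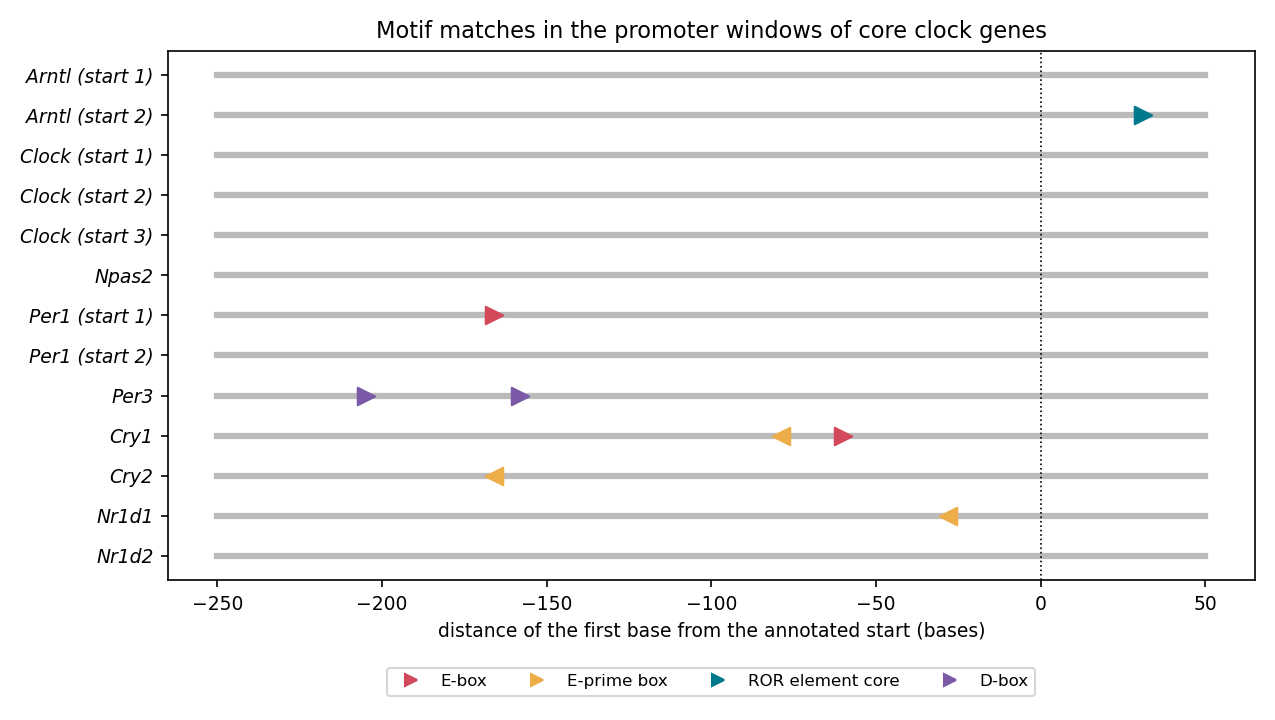
Position of motif matches in 13 promoter windows of 9 core clock genes; the x axis is the distance in bases from the annotated start (dotted line), and an arrow points right for a match on the strand of the gene and left for one on the opposite strand. Arntl has its ROR element core 31 bases after the start, and Per3 has both D-boxes upstream, at 205 and 158 bases.

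The 3 activator transcripts lay lower in every old library than in any young one. Of the repressor transcripts Per3 and Nr1d2 lay higher in every old library, and the other 5 overlapped between the ages. Values are normalized counts, that is whole reads divided by a size factor of the library, and each library held between 19.04 and 34.68 M reads in genes. Every value of a member lay between 260 and 6254 normalized counts, far above the minimum mean of 10 required for testing. Limma, fitted across 14822 genes, called 4 of the 10 at an adjusted p under 0.05, where it called 5.22% of all tested genes. Of these members 2 were higher and 2 lower in old cells, against 3.34% of all tested genes called higher and 1.88% called lower. The libraries of the ages did not overlap for 5 members, with 2 above and 3 below, against 13.4% of tested genes that did not overlap, made up of 7.99% with all old libraries above and 5.46% with all below. Since the genes were chosen with this comparison in view, nothing is read from these shares. The median log2 fold change (old over young) was -0.07 for the 10 members and 0.04 for all tested genes, and the median size of the change was 0.42 and 0.21.

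The activators came out lower in old cells in every library. Arntl, the obligate partner of the activating pair, had 1135, 1360, 1052 and 1030 normalized counts in the old libraries, against 2958, 2715, 2808 and 2513 in the young ones. The highest old library lay below the lowest young one. Its mean was 1144 ± 151 in old and 2749 ± 186 in young cells (SD, n = 4 each), a log2 fold change of -1.27 ± 0.11 (SE), or 41.5% of the young level. This was the largest change in size among the 10 genes. Without each library in turn the difference ran between -1.36 and -1.22, and Arntl was called each time, as were 1.88% of all tested genes.

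Npas2, which can replace CLOCK as the partner of BMAL1, had 805, 1290, 489 and 750 normalized counts in the old libraries, against 1882, 1617, 1399 and 1776 in the young ones. Here too the ages were apart, although old library 2, at 1290, came close to young library 3, at 1399. The spread was wider among old libraries (834 ± 334) than among young ones (1668 ± 210, SD, n = 4 each), with a log2 fold change of -1.08 ± 0.24. Npas2 was called in the full set, but not without old library 1 (-1.09), old library 4 (-1.05), young library 1 (-1.02), young library 2 (-1.09) or young library 4 (-1.04). Without old library 3, the lowest of all, it stood at -0.85, and without old library 2, the highest of the old ones, at -1.31.

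Clock, the main partner of BMAL1 and a histone acetyltransferase, showed the smallest difference of the activators. It had 2297, 2440, 2665 and 1560 normalized counts in the old libraries, against 2980, 3426, 2706 and 3235 in the young ones. The ages were separated by little, since old library 3 at 2665 and young library 3 at 2706 nearly met, and old library 4 was low. Means were 2241 ± 478 in old and 3087 ± 313 in young cells (SD, n = 4 each), with a log2 fold change of -0.48 ± 0.16, and limma did not call the gene. It stood at -0.32 without old library 4, and DESeq2 on recovered reads called it at -0.50.

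**Figure D2:**
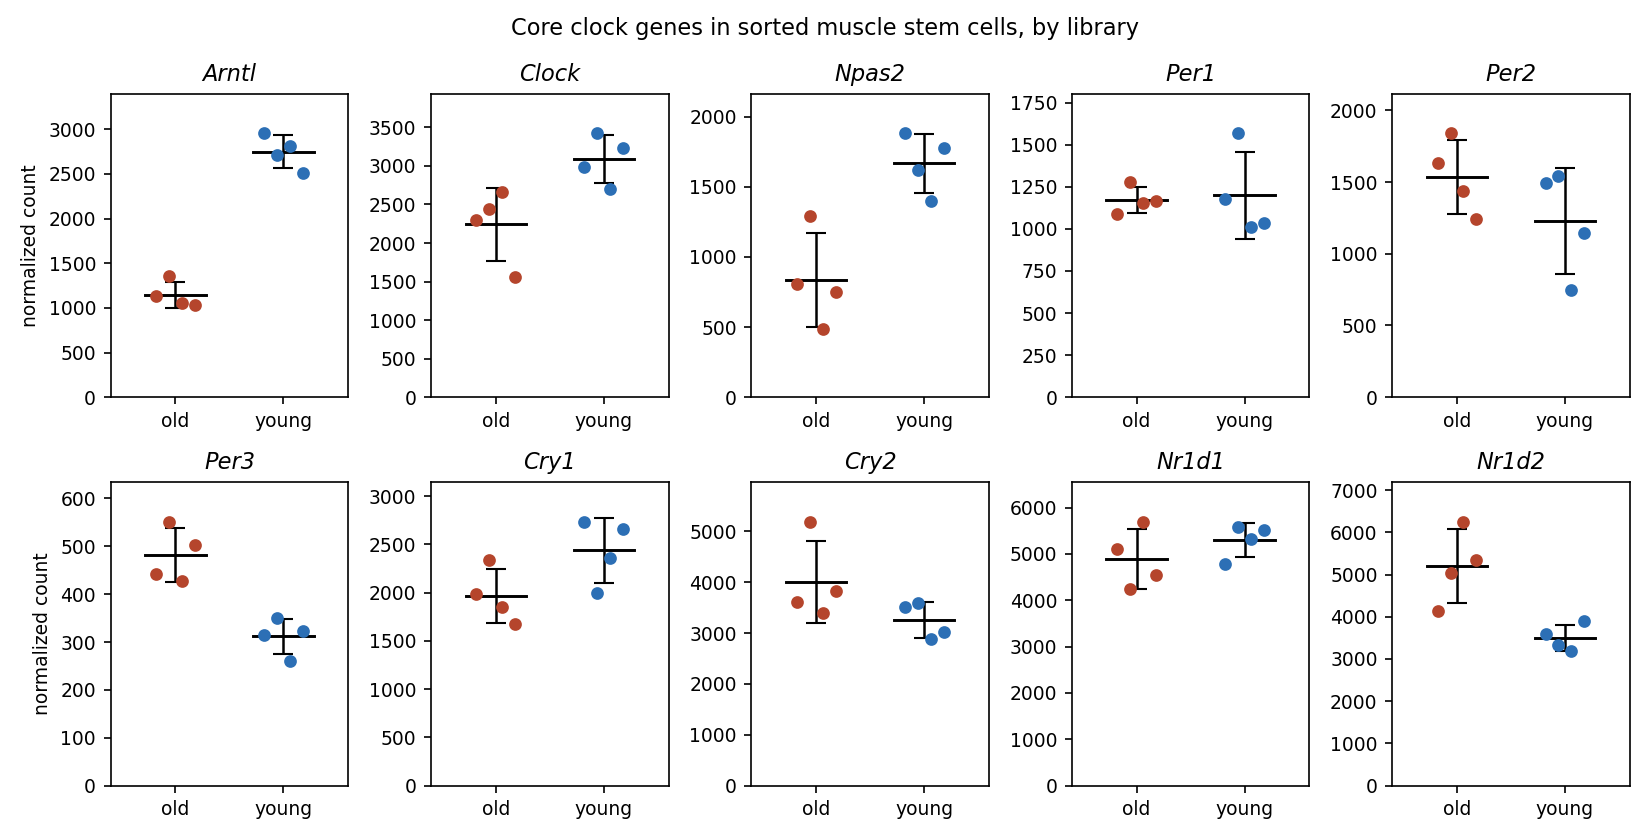
Normalized count (y axis, from 0) of the 10 core clock genes in each old library (red, left) and young library (blue, right); horizontal bars are means and whiskers SD over 4 libraries. Arntl, Npas2 and Clock lie lower in every old library than in any young one, Per3 and Nr1d2 lie higher, and the other 5 genes overlap between the ages.

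The Period genes, whose proteins carry CRY into the nucleus and close the loop, did not move as a group. Per3 had 443, 552, 428 and 502 normalized counts in the old libraries, against 315, 350, 260 and 322 in the young ones. All old libraries lay above all young ones, with means of 481 ± 56.7 in old and 312 ± 37.4 in young cells (SD, n = 4 each) and a log2 fold change of 0.63 ± 0.14. Per3 was called in the full set, but not without old library 1 (0.66), old library 2 (0.56), old library 4 (0.60), young library 1 (0.63) or young library 4 (0.64). With immediate early genes as a covariate it was at 0.61 and not called, and under quantile normalization at 0.52 and not called.

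Per2, the Period protein most needed for rhythm in mice, had 1632, 1841, 1434 and 1240 normalized counts in the old libraries, against 1493, 1539, 745 and 1144 in the young ones. The ages overlapped, and young library 3 was the lowest of all 8. Its log2 fold change was 0.36 ± 0.22, and 0.14 without young library 3. Per1, which also responds quickly to cAMP and glucocorticoid signals, had 1091, 1276, 1154 and 1165 normalized counts in the old libraries, against 1176, 1569, 1014 and 1035 in the young ones. The old values lay within the range of the young ones, and the log2 fold change was -0.01 ± 0.14. The sign of Per1 turned with a single library, to 0.12 without young library 2 and to 0.02 without old library 1.

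Cryptochromes, the strongest repressors of the BMAL1 pair, leaned in opposite directions without being called. Cry1 had 1990, 2344, 1851 and 1675 normalized counts in the old libraries, against 2737, 1993, 2361 and 2664 in the young ones (log2 fold change -0.31 ± 0.13). The ages overlapped because old library 2 stood above young library 2. Cry2 had 3604, 5189, 3385 and 3825 normalized counts in the old libraries, against 3519, 3584, 2878 and 3029 in the young ones (log2 fold change 0.28 ± 0.14). Old library 2 was far the highest, and without it the difference was 0.15. An unnamed transcript model, D930015M05Rik, shares 295 exon bases with Cry2 on the opposite strand and had 41.1 and 49.2 normalized counts in old and young cells.

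The REV-ERB receptors, which repress Arntl, behaved unlike each other. Nr1d2 had 4132, 5039, 6254 and 5356 normalized counts in the old libraries, against 3585, 3323, 3183 and 3899 in the young ones. The lowest old library, 4132, exceeded the highest young one, 3899, and the log2 fold change was 0.56 ± 0.13 with means of 5195 ± 876 in old and 3497 ± 315 in young cells (SD, n = 4 each). Nr1d2 was called in the full set and without old library 1 (0.66), but without each of the other 7 libraries in turn it was not called, with values between 0.47 and 0.61. The libraries behind the lost calls were old 2 (0.57), old 3 (0.47) and old 4 (0.54), and young 1 (0.57), young 2 (0.54), young 3 (0.52) and young 4 (0.61). Without young library 3 and old library 3 together it was at 0.42 and not called.

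Nr1d1, the better known of the receptors, had 5103, 4239, 5696 and 4541 normalized counts in the old libraries, against 4789, 5572, 5318 and 5520 in the young ones. Both the highest and the lowest value were from old libraries, and the log2 fold change was -0.12 ± 0.10. Nr1d1 shares 263 exon bases with Thra, the thyroid hormone receptor gene on the opposite strand. The strandedness of the libraries is not given in the sources used here, so reads of that stretch may not be separable. Thra had 1156 and 1400 normalized counts in old and young cells (log2 fold change -0.27 ± 0.15, limma adjusted p = 0.339).

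Ratios within a library take the size factor out of the comparison, and the 9 pairs computed were chosen after gene values were seen. In 6 pairs the ages did not overlap, and in 3 they did. The share over all pairs of tested genes was not computed, so nothing is read from this count. The log2 ratio of Nr1d2 to Nr1d1 reads was -0.31, 0.25, 0.14 and 0.24 in the old libraries, against -0.42, -0.75, -0.74 and -0.50 in the young ones. No old library fell among the young ones. Relative to Clock, Arntl stood at -1.02, -0.84, -1.34 and -0.60 in the old libraries and at -0.01, -0.34, 0.05 and -0.36 in the young ones, again without overlap. Npas2 relative to Clock did overlap between the ages, at -1.48 ± 0.69 in old and -0.89 ± 0.18 in young cells (SD, n = 4 each). Cry2 relative to Cry1 averaged 1.02 ± 0.18 in old and 0.42 ± 0.29 in young cells, and its ranges nearly met, 0.86 to 1.19 against 0.19 to 0.85. The log2 ratio of Per3 to Per1 averaged -1.29 ± 0.10 in old and -1.93 ± 0.20 in young cells. That of Arntl to Nr1d2, activator and repressor, averaged -2.18 ± 0.35 in old and -0.35 ± 0.20 in young cells. Dbp, an output of the loop, relative to Arntl had the largest difference of the 9 pairs, at -1.06 ± 0.44 in old and -3.45 ± 0.33 in young cells. For Arntl to Nr1d2 and for Dbp to Arntl the lack of overlap was fixed by the single genes. Arntl lay lower, and Nr1d2 and Dbp higher, in every old library than in any young one. Overlap between the ages was also seen for Per3 relative to Per2 (-1.67 ± 0.25 in old and -1.93 ± 0.33 in young cells) and for Arntl relative to Npas2 (0.53 ± 0.42 in old and 0.73 ± 0.21 in young cells). A ratio does not tell which gene of a pair differed between the ages.

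**Figure D3:**
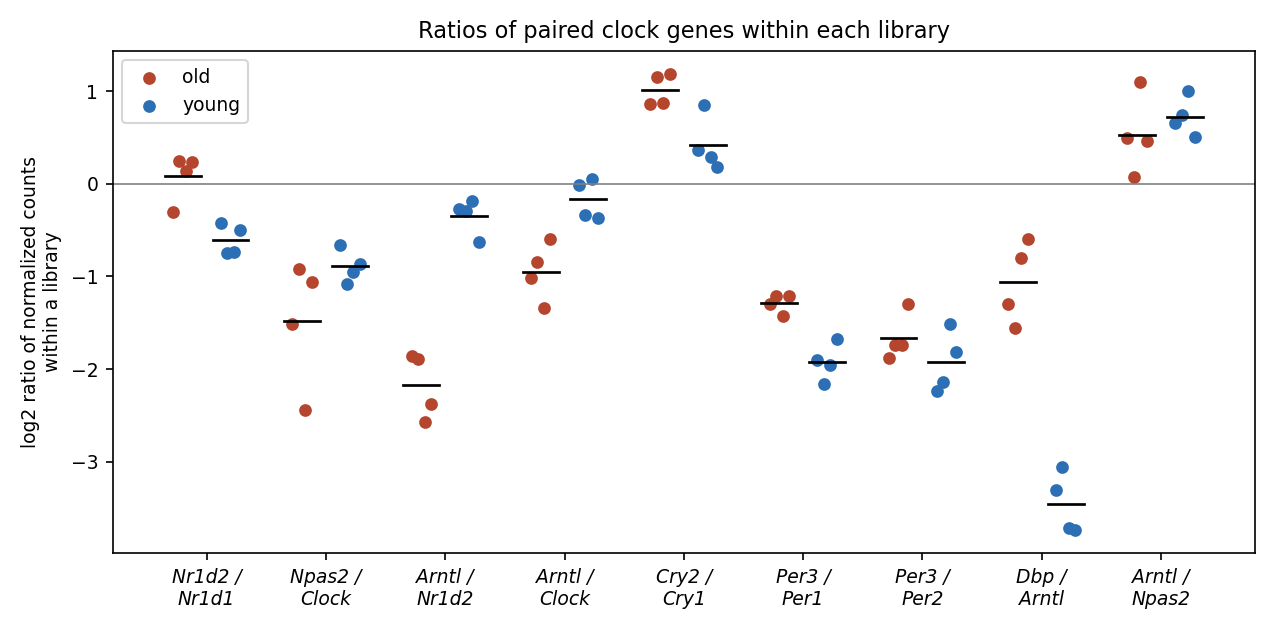
Log2 ratio of normalized counts of paired clock genes within each library (y axis), old libraries in red on the left and young ones in blue on the right of each pair; bars are means of 4 libraries. The ratios of Npas2 to Clock, Per3 to Per2 and Arntl to Npas2 overlap between the ages, and those of the other 6 pairs do not.

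Levels of different genes were compared per kilobase of merged exons (GENCODE M21). Nr1d1 was the highest member at both ages, at 1799 ± 236 normalized counts per kilobase in old and 1948 ± 131 in young cells (SD, n = 4 each), and Per3 the lowest, at 80.2 ± 9.45 and 52.0 ± 6.23. In old cells Nr1d2 came next to Nr1d1 (1114 ± 188), then Cry2 (921 ± 187), Cry1 (649 ± 93.8), Arntl (370 ± 48.7), Per2 (263 ± 44.3), Clock (226 ± 48.2), Per1 (208 ± 13.6) and Npas2 (197 ± 78.9). The ranges of Nr1d2 and Cry2 overlapped there, as did those of Per2 with Clock, Clock with Per1, and Per1 with Npas2. Young cells had Arntl in the place below Nr1d1 (890 ± 60.3), followed by Cry1 (806 ± 112), Nr1d2 (750 ± 67.6), Cry2 (749 ± 81.0), Npas2 (394 ± 49.6), Clock (311 ± 31.5), Per1 (213 ± 45.7) and Per2 (211 ± 63.2). From Arntl down to Cry2 each of these overlapped its neighbour in range, as did Npas2 with Clock, Clock with Per1, and Per1 with Per2. Arntl thus stood in place 5 of 10 in old and in place 2 in young cells, and Nr1d2 in place 2 in old and in place 4 in young cells.

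Other genes of the clock were read from lists of transcription factors, of proteins that modify or bind clock proteins, and of output genes. All 29 such genes in the table were tested, and 3 were called higher and 2 lower in old cells, against the shares of 3.34% and 1.88% of all tested genes. One of the 3, Tspan4, was listed as an output gene without a stated basis, and without it 2 of 28 were called higher. Their median log2 fold change was -0.04 and the median size of the change 0.27. Of 11 transcription factors limma called 2 higher and 1 lower, edgeR called 3 and DESeq2 6, and 8 had a limma p under 0.05 before adjustment. The median log2 fold change of these 11 was 0.55. Of 12 modifying and binding genes limma called none, edgeR 0 and DESeq2 1, while 3 had a limma p under 0.05 before adjustment. Of all 14822 tested genes limma called 773, edgeR 707 and DESeq2 1369. The share of all tested genes with a limma p under 0.05 before adjustment was not computed, so nothing is read from the unadjusted counts.

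Among the transcription factors Rora, the receptor that activates Arntl through ROR elements, fell to 4739, 4792, 4569 and 4431 normalized counts in the old libraries, against 6246, 6242, 6314 and 6552 in the young ones. The libraries of each age lay close together, and the log2 fold change was -0.45 ± 0.07 (limma adjusted p = 0.00657). The PAR-domain factor Dbp, a direct E-box target, rose to 461, 461, 603 and 681 normalized counts in the old libraries, against 300, 325, 214 and 188 in the young ones. Its log2 fold change was 1.12 ± 0.21 (limma adjusted p = 0.0147). Tef, of the same family, also rose, with means of 2647 ± 206 in old and 1748 ± 203 in young cells (SD, n = 4 each), a log2 fold change of 0.60 ± 0.10 and a limma adjusted p of 0.0107. Rora, Dbp and Tef kept their calls without each of the 8 libraries.

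Hlf, the remaining PAR-domain factor, was at 0.76 ± 0.21 (limma adjusted p = 0.0669) and did not pass in limma. The E-box repressors Bhlhe41 and Bhlhe40 were at 0.88 ± 0.25 and 0.55 ± 0.16 (limma adjusted p = 0.0723 and 0.0827). Without young library 2 Bhlhe41 passed at 1.06, and without young library 3 Bhlhe40 passed at 0.65. DESeq2 on recovered reads called Hlf (0.68), Bhlhe41 (0.79) and Bhlhe40 (0.49) higher in old cells. Rorb, at low counts of 41.3 ± 19.7 in old and 15.5 ± 6.94 in young cells (SD, n = 4 each), had 1.36 ± 0.44 (limma adjusted p = 0.105). Hlf, Bhlhe41 and Rorb lay higher in every old library than in any young one, as did 7.99% of tested genes, while Bhlhe40 overlapped. The kinase gene Csnk1a1 was at -0.28 ± 0.08 (limma adjusted p = 0.0698), Csnk1e, whose product phosphorylates PER, at -0.17 ± 0.09, the deubiquitinase gene Usp2 at -0.27 ± 0.12, and Tipin, a replication fork protein that binds TIMELESS, at 0.33 ± 0.14. None of these 4 passed in limma, and DESeq2 on recovered reads called Csnk1a1 (-0.32). Csnk1a1 lay lower in every old library than in any young one, as did 5.46% of tested genes.

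Of 7 output genes, 1 rose and 1 fell. Cdkn1a, the cell cycle inhibitor p21 that REV-ERB-alpha represses in mouse liver, fell to 11248 ± 2169 normalized counts in old cells, against 18233 ± 2384 in young cells (SD, n = 4 each; log2 fold change -0.71 ± 0.15, limma adjusted p = 0.0244). It lost the call without old library 2 (-0.70), young library 1 (-0.73) or young library 4 (-0.75). Tspan4, a tetraspanin gene, rose to 2760 ± 321, against 1372 ± 148 (log2 fold change 1.01 ± 0.11, limma adjusted p = 0.00165), and no clock role is given for it here. Without Tspan4 limma, edgeR and DESeq2 each called 0 of the 6 output genes higher, and 0 were higher at a limma p under 0.05 before adjustment. Not called were Nampt, the NAD salvage enzyme and E-box target, at 0.22 ± 0.11, Noct, a rhythmic phosphatase gene, at -0.16 ± 0.09, and Wee1, the mitotic kinase gene, at -0.03 ± 0.12.

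**Figure D4:**
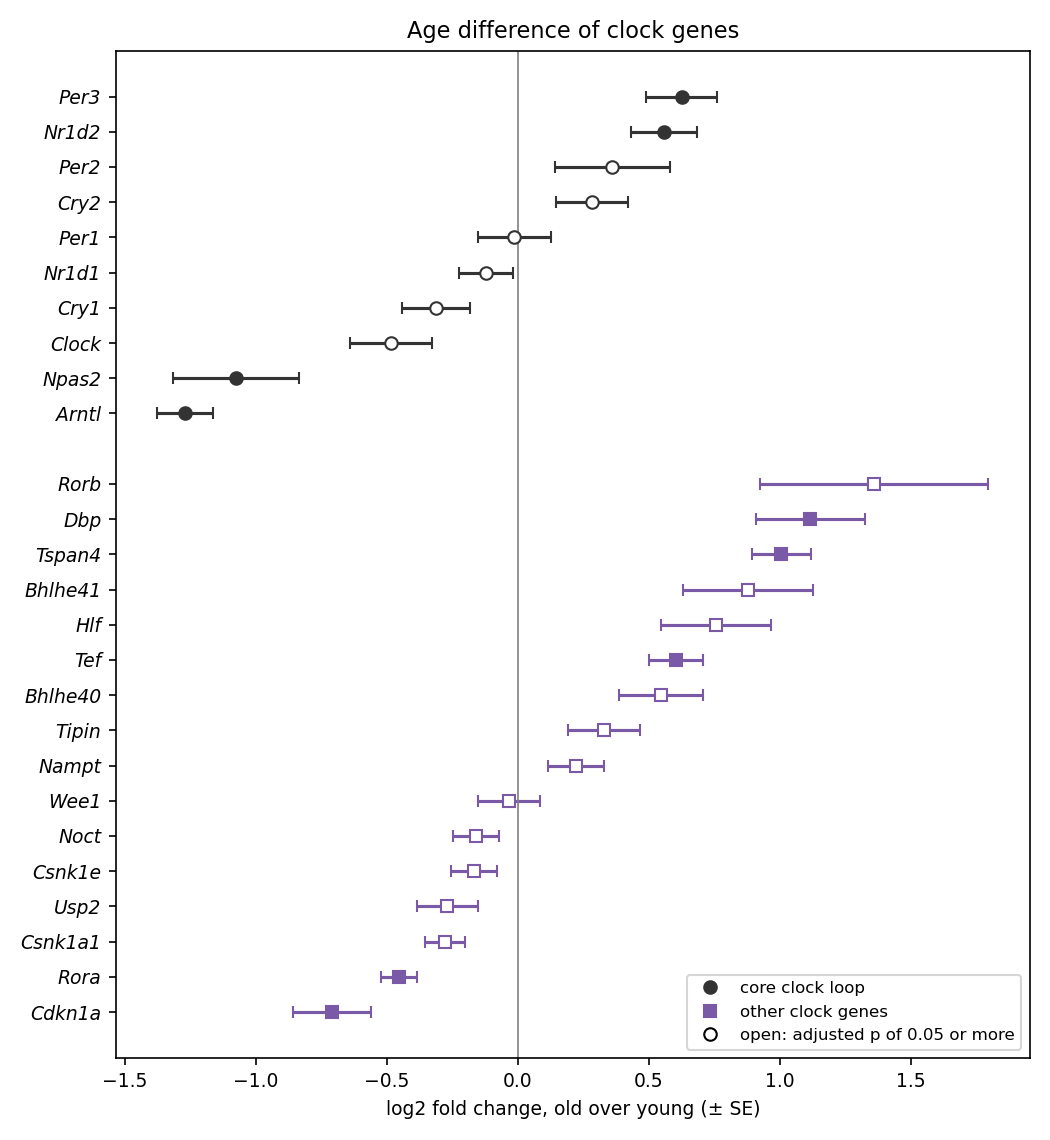
Log2 fold change, old over young, with SE (x axis) of the 10 core clock genes (circles) and of the other clock genes named in the text (squares), filled where the adjusted p across all tested genes was under 0.05. Arntl and Npas2 lie lowest and Per3 and Nr1d2 highest among the core genes; the fill of the circles is a description, because these genes were chosen with the comparison known.

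The genes whose level across the 8 libraries ran closest to that of Arntl were found by the mean absolute difference in log2 level. Each gene's own mean was subtracted first. The search covered 11457 genes averaging at least 50 normalized counts, after symbols of predicted models and pseudogenes were left out. Closest to Arntl were Mthfd2, a mitochondrial folate enzyme (0.142), Iqch (0.15), Foxred2 (0.157), the orphan nuclear receptor gene Nr4a3 (0.159) and Csdc2 (0.163). These genes share the age difference of Arntl by the way they were found. Closest to Nr1d1 were the kinesin gene Kif2a (0.0448), the nucleoporin gene Nup155 (0.0469), the actin nucleation gene Arpc2 (0.0515), Gdi2 (0.0556) and Acot10 (0.0592). Like Nr1d1, these 5 differed little between the ages (log2 fold changes from -0.17 to -0.09), and genes that vary little lie close by this measure. Within the loop the closest pair was Per1 and Cry2 (0.162), followed by Per3 and Cry2 (0.176) and by Per3 and Nr1d2 (0.188).

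Transcripts that report on the sorted cells and their handling were read beside the loop. Pax7, Myf5, Myod1 and Vcam1 were present in every library, with 2749 ± 493, 3179 ± 270, 15731 ± 4568 and 20374 ± 2636 normalized counts in old cells, and 2441 ± 419, 3487 ± 545, 16087 ± 2593 and 16131 ± 2482 in young cells (SD, n = 4 each). None of the 4 was called in the full set, at log2 fold changes of 0.17 ± 0.15, -0.12 ± 0.12, -0.06 ± 0.20 and 0.34 ± 0.13. Under quantile normalization Vcam1 was called higher in old cells (0.40). Of the whole list of 10 stem cell markers 3 fell and none rose, namely the integrin gene Itga7 (-0.68 ± 0.11, limma adjusted p = 0.00954), the calcitonin receptor gene Calcr (-0.47 ± 0.08, limma adjusted p = 0.0114) and Chrdl2 (-0.76 ± 0.17, limma adjusted p = 0.0298), which are named after their values were seen. Chrdl2 lost the call without old library 2 (-0.62) or 4 (-0.71), or without young library 1 (-0.76), 2 (-0.71) or 4 (-0.74), while Itga7 and Calcr kept theirs in all 8 such runs. The stem cell markers together summed to between 122868 and 148231 normalized counts in old and between 130335 and 161905 in young libraries. Tenocyte markers summed, without overlap of the ages, to between 11718 and 107452 normalized counts in old libraries and to between 3189 and 8357 in young ones, with 5 of 6 called higher, among them Thbs4 and Tnmd. Markers of fibro-adipogenic progenitors summed to between 126152 and 288435 in old and between 99289 and 164200 in young libraries, with 2 of 12 called higher, Lum and Dcn, and with no marker of either list at 0 in any library. Of these 12 edgeR called 2 and DESeq2 4, and 8 had a limma p under 0.05 before adjustment. The median log2 fold change of the 12 was 0.94. The share of all tested genes at that unadjusted p was not computed, so nothing is read from the 8. The libraries are bulk samples, so fewer cells of a type and less RNA per cell cannot be told apart.

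With the mean level of these fibroblast and tenocyte markers as a covariate, Arntl was at -1.42 ± 0.18, Npas2 at -1.80 ± 0.31, Nr1d2 at 0.72 ± 0.21, Clock at -0.34 ± 0.27 and Per3 at 0.28 ± 0.20, and none was called. In that model 1 gene of 14822 was called in all. Summed tenocyte markers did not overlap between the ages, while summed markers of fibro-adipogenic progenitors did. The overlap of the covariate itself, a mean over both lists, was not computed. It may be bound up with age, so the model is not used to tell them apart. The SE of Arntl was 0.18 with the covariate and 0.11 without it, and nothing is read from the lost calls. Cry2, Per2 and Nr1d1 changed sign in it, to -0.15 ± 0.17, -0.10 ± 0.34 and 0.12 ± 0.16, and Per1 was at -0.37 ± 0.20. Of 9 endothelial, 8 macrophage, 8 smooth muscle and pericyte and 6 Schwann cell markers none was called by limma, edgeR or DESeq2 (0 each), and at a limma p under 0.05 before adjustment there were 0, 1, 3 and 0. Their summed levels overlapped between the ages. In the same order, the median log2 fold changes of these lists were -0.04, 0.72, 0.55 and 0.20, against 0.04 for all tested genes. Endothelial markers were highest in old library 3 (52869) and young library 3 (64058).

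Immediate early genes, which respond to cell isolation, summed to between 547880 and 692676 normalized counts in old and between 479219 and 588983 in young libraries. Of 20 such genes Ier3 rose (0.52 ± 0.13, limma adjusted p = 0.0499) and Egr3 and Nr4a3 fell (-0.69 ± 0.12 and -0.98 ± 0.14, limma adjusted p = 0.0131 and 0.00494). Ier3 kept its call in only 1 of the 8 runs without a library, that without young library 3 (0.65). Of the 20 genes edgeR called 0 higher, while DESeq2 called Ier3, Junb and Socs3 higher, and both called Egr3 and Nr4a3 lower. At a limma p under 0.05 before adjustment 4 were higher and 2 lower, and the median log2 fold change was 0.12. With these genes as a covariate Arntl, Npas2 and Nr1d2 were at -1.32 ± 0.09, -1.15 ± 0.24 and 0.60 ± 0.12, and all 3 were called. Of 12 glucocorticoid response genes, with a median log2 fold change of 0.32, 6 were higher and 1 lower at a limma p under 0.05 before adjustment. The share of all tested genes at that unadjusted p was not computed, so nothing is read from these counts of either list. The call after adjustment was that of Klf9, which also cycles with the clock, at -0.40 ± 0.08 (limma adjusted p = 0.0232). DESeq2 also called Tsc22d3 higher in old cells. Klf9 lost the call without old library 2 (-0.38), old library 4 (-0.36), young library 1 (-0.41) or young library 4 (-0.37), and with the replicate number as a block (-0.40).

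**Figure D5:**
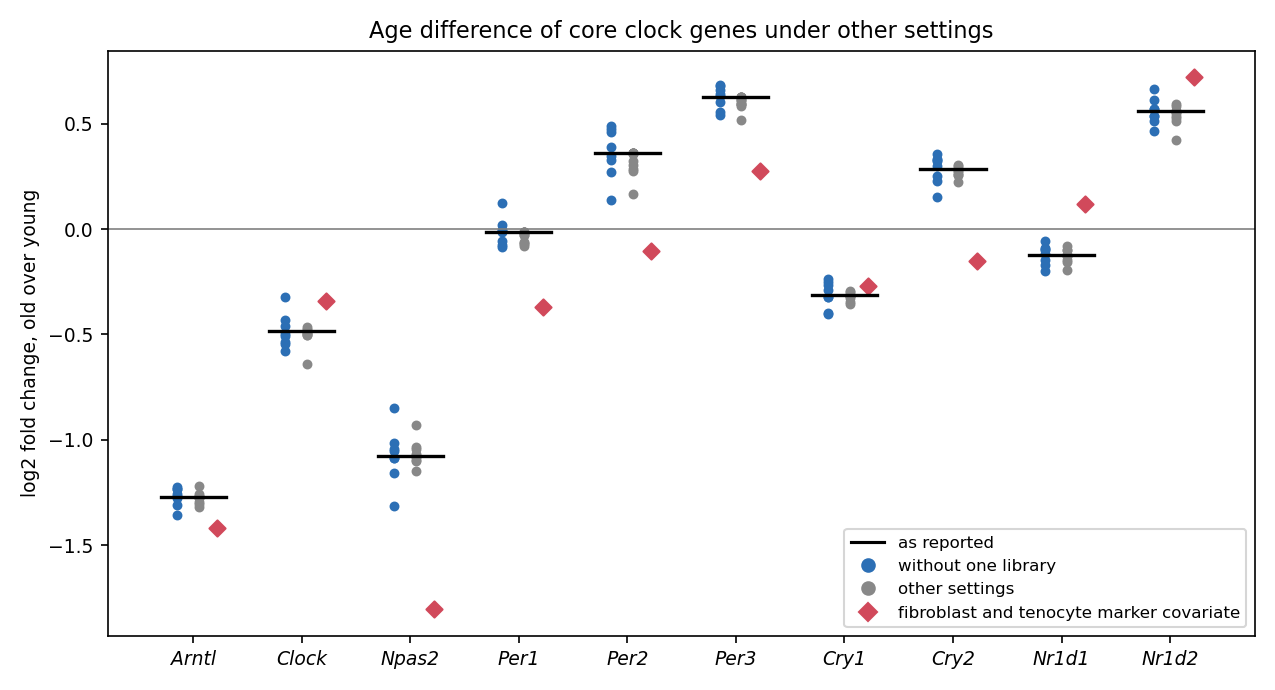
Log2 fold change, old over young (y axis), of the 10 core clock genes as reported (bar), without each library in turn (blue), with a fibroblast and tenocyte marker covariate (red diamond) and under the remaining alternatives (grey). Arntl, Npas2 and Clock stay below 0 and Per3 and Nr1d2 above 0 in all 22 alternatives, whereas Per1, Per2, Cry2 and Nr1d1 cross 0 in at least 1.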

How the data were processed

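RNA from sorted muscle stem cells was sequenced in 8 libraries, 4 old and 4 young. Per the submitters' processing notes the tools were DESeq2, featureCounts from Subread 1.5.1, STAR and Trim Galore 0.4.2, and the builds GRCm39 and mm10 are listed without roles. The authors deposited a signal per gene and library, a normalized count made by dividing reads by a size factor; dividing by the value of 1 read, 0.601 to 1.07, returned whole reads (within 0.01) for at least 99.97% of values above 0. Age was tested with limma 3.58.1 (R 4.3.3, intensity trend, two-sided) on log2(normalized count + 1), which understates changes of low genes, for 14822 genes with a mean of at least 10, with Benjamini-Hochberg adjustment and a threshold of 0.05; "called" means under it. Alternatives were pseudocounts of 0.5 and 8, no filter, a minimum of 50, quantile and total-count scaling, eBayes without the trend, sample weights, a replicate block, leaving out each library, marker covariates, and edgeR 4.0.16 and DESeq2 1.42.0 on recovered reads. Leaving out young library 3 and old library 3 together was added after the data were seen. In simulated data with 4 against 4 and 14822 genes, 4-fold changes were found by limma in 51 of 66 genes, 2-fold changes in 37 of 67 and 1.5-fold changes in 14 of 67, with 4 false calls in 14622 genes. The changed genes were drawn from all tested genes, and fewer were changed than were called in the data. These rates therefore need not hold at the levels of the members. The members, the lists and the tests were chosen with earlier results of these data known, and the motifs after matches of 8 spellings were seen. Named were all members, of other clock lists each called gene and up to 4 with the next smallest p, called response genes, fixed stem cell markers, up to 2 called markers of other cell types, and the 5 genes most like Arntl and Nr1d1. Of the 8 listed output genes 7 were matched by symbol, the other being an older name of Noct, and Usp2 is in 2 lists.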

Additional observations from a re-analysis of the deposited data

Results flagged for a closer look

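Pax7, the defining transcription factor of muscle stem cells, had 3485 normalized counts in old library 4, against 2436 to 2549 in the other 3 old libraries. The gap to its nearest neighbour was 0.893 of the range of the old libraries, above Dixon's critical value for 4 samples. It was the only such value among 76 groups of 4 libraries screened (38 genes at each age), of which chance flags about 1 in 20, and no core clock gene was among them.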

How the results depend on the processing

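Of the 10 core clock genes, Arntl, Clock, Npas2, Cry1, Per3 and Nr1d2 kept their sign in all 22 alternatives. Arntl was called in 21 of them, Npas2 in 15, Per3 in 13 and Nr1d2 in 12. The number of members called higher, 2, was 1 under quantile normalization, with the immediate early gene covariate and without young library 3 and old library 3, and 0 with eBayes without the trend and with the fibroblast and tenocyte marker covariate. That of members called lower, 2, was 3 with DESeq2, which added Clock, 1 with eBayes without the trend and 0 with the fibroblast and tenocyte marker covariate. Without 1 library at a time these counts ran from 0 to 1 and from 1 to 2, that of other clock genes from 4 to 6, and that of all called genes, 773, from 361 to 840. The 773 became 402 with eBayes without the trend, 1369 with DESeq2 and 1 with the fibroblast and tenocyte marker covariate, and the 5 other clock genes became 9 and 0 with the last 2. The cause was not tested. Signs turned with that covariate for Per2 (-0.10), Cry2 (-0.15), Nr1d1 (0.12), Wee1 (0.050) and Pax7 (-0.13), with sample weights for Wee1 (0.0035), and without single libraries for Per1 (range -0.085 to 0.12 over these runs), Wee1 (-0.14 to 0.021) and Myod1 (-0.22 to 0.086), none of which was called. With the replicate number as a block 811 genes were called, and of members 2 higher and 2 lower. For pairing, each gene's mean within its age was subtracted, and the remaining deviations of old and young libraries were correlated. Deviations of same-numbered libraries correlated at 0.188, 0.0723, 0.304 and -0.0416, and those of differently numbered ones at between -0.158 and 0.145. The labels state no pairing, and these values do not decide whether the numbers pair the libraries. Likeness and ratios were not recomputed. Each gene rests on 8 libraries. In simulated data most 1.5-fold changes, placed in genes drawn from all those tested, were missed, and recovery at the levels of the members was not computed.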
